A study of Mus musculus with 2744 samples.

Results

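On Day 6 of the differentiation of mouse embryonic stem cells into motor neurons, cells that a sorter had placed in an eGFP+ gate were compared with cells of an eGFP++ gate from the same main experiment. The eGFP+ cells filled 1 plate of 96 wells. Wells in which at least 500 genes had a read were kept, which left 83 eGFP+ cells of 96. The eGFP+ wells nearest to that limit had 554 genes on the kept side and 95% of the limit on the other. The eGFP++ cells filled 3 plates, here numbered 1 to 3, with 94, 94 and 95 kept cells of 96 each. The whole series holds 2448 kept cells of 2744. Beside the sorted cells stood 4 plates each of Day 5 and Day 6 without an eGFP label, called unselected below, with 80 to 88 kept cells per Day 5 plate and 87 to 90 per Day 6 plate.

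All groups came from the same kind of culture, in which embryonic stem cells form embryoid bodies that differentiate by a published motor neuron protocol. The bodies were dissociated with papain, and each cell was sorted into a well, frozen and lysed. The labels give no genotype, no further agent, no gate limits and no promoter for the eGFP reporter, and they tie all plates of a group to 1 experiment without naming a culture. The 3 eGFP++ plates are therefore separate libraries of sorted cells and not known to be separate cultures. With 1 plate against 3, no test was possible, and the spread over the eGFP++ plates is the only measure of how much libraries of 1 gate differ.

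In the ventral spinal cord, dividing progenitors that line the lumen are kept in that state by Notch signals, whose targets Hes1 and Hes5 repress the proneural genes. Proneural factors such as Neurog2 push a cell to leave the cycle and become a neuron, and they turn on Notch ligands that hold back its neighbours. The newborn motor neuron then expresses the homeodomain factors Isl1, Lhx3 and Mnx1, and afterwards builds an axon with neurofilaments, tubulins and guidance receptors. Fluorescent reporters are commonly used to sort cells of such cultures.

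Proneural, Notch pathway, progenitor and cell cycle genes were among those higher on the eGFP+ plate than on any eGFP++ plate. Motor neuron factors and genes of the axonal cytoskeleton, synapses and axon guidance were among those lower. Neurog2 stood at 381.9 CPM (counts per 1e+06 gene reads) on the eGFP+ plate, against 21.9, 59.6 and 39.4 CPM on eGFP++ plates 1, 2 and 3. Ccnb1, the cyclin of entry into mitosis, stood at 373.5 CPM on the eGFP+ plate, against 37.9, 108.8 and 34.5 CPM. Nefm, the medium neurofilament subunit, stood at 331.3 CPM on the eGFP+ plate, against 2682, 4036 and 3579 CPM. For each of these markers the eGFP+ plate lay outside the range of the eGFP++ plates.

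Some properties of the libraries differed between the plates, within the eGFP++ gate as well as between the gates. The eGFP+ cells had a median of 1528 genes with a read, against 1746, 3396.5 and 2902 genes on eGFP++ plates 1, 2 and 3. Spike-in sequences took 18.99% of the gene and spike-in reads on the eGFP+ plate, against 18.34%, 9.38% and 8.96% on the eGFP++ plates. The summed gene reads came to 16627773 on the eGFP+ plate, against 13994455, 19986666 and 17548888 on the eGFP++ plates. By genes per cell and spike-in share, eGFP++ plate 1 was the plate closest to the eGFP+ plate, so ratios against each plate are given below. The part of library quality in the results was not tested. Fewer cells of a type and less RNA per cell cannot be told apart in sums over a plate.

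The eGFP label was checked first with the reads of the reporter itself, which the tables list as Egfp. Egfp stood at 1486 CPM on the eGFP+ plate, with an exact Poisson 95% interval of 1468 to 1505 CPM. The reads carry no molecular identifiers, so this interval and those for shares cover counting error only. On the eGFP++ plates it stood at 11123, 9902 and 8477 CPM, so the eGFP+ plate lay below all 3. To set cells of different depth side by side, each was thinned at random to 10000 gene reads, which 1 cell of eGFP++ plate 3 did not reach. An Egfp read was then found in 51.8% of eGFP+ cells (exact binomial 95% interval 40.6% to 62.9%), and in 100% of the cells of each eGFP++ plate. With all reads, 59.04% of eGFP+ cells had an Egfp read. The cells of the 4 Day 2 plates, before motor neurons form, gave shares of 3.49% to 17.98% after the same thinning.

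The number of Egfp reads per thinned cell had a median of 1 on the eGFP+ plate, with quartiles of 0 and 15. The lower quartiles were 71.75, 49.75 and 43.5 reads on eGFP++ plates 1, 2 and 3, and the lowest cells of those plates held 2, 3 and 3 reads. Of the eGFP+ cells, 26 of 83 (31.3%) reached 11 reads, the 5th percentile of all eGFP++ cells. Single cells of the gates thus overlapped in Egfp reads, while the plate sums did not. The unselected Day 6 plates held 2429.5 to 5565 CPM of Egfp and the unselected Day 5 plates 1019 to 2076 CPM, so the eGFP+ plate lay below all Day 6 plates and within the Day 5 range.

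**Figure D1:**
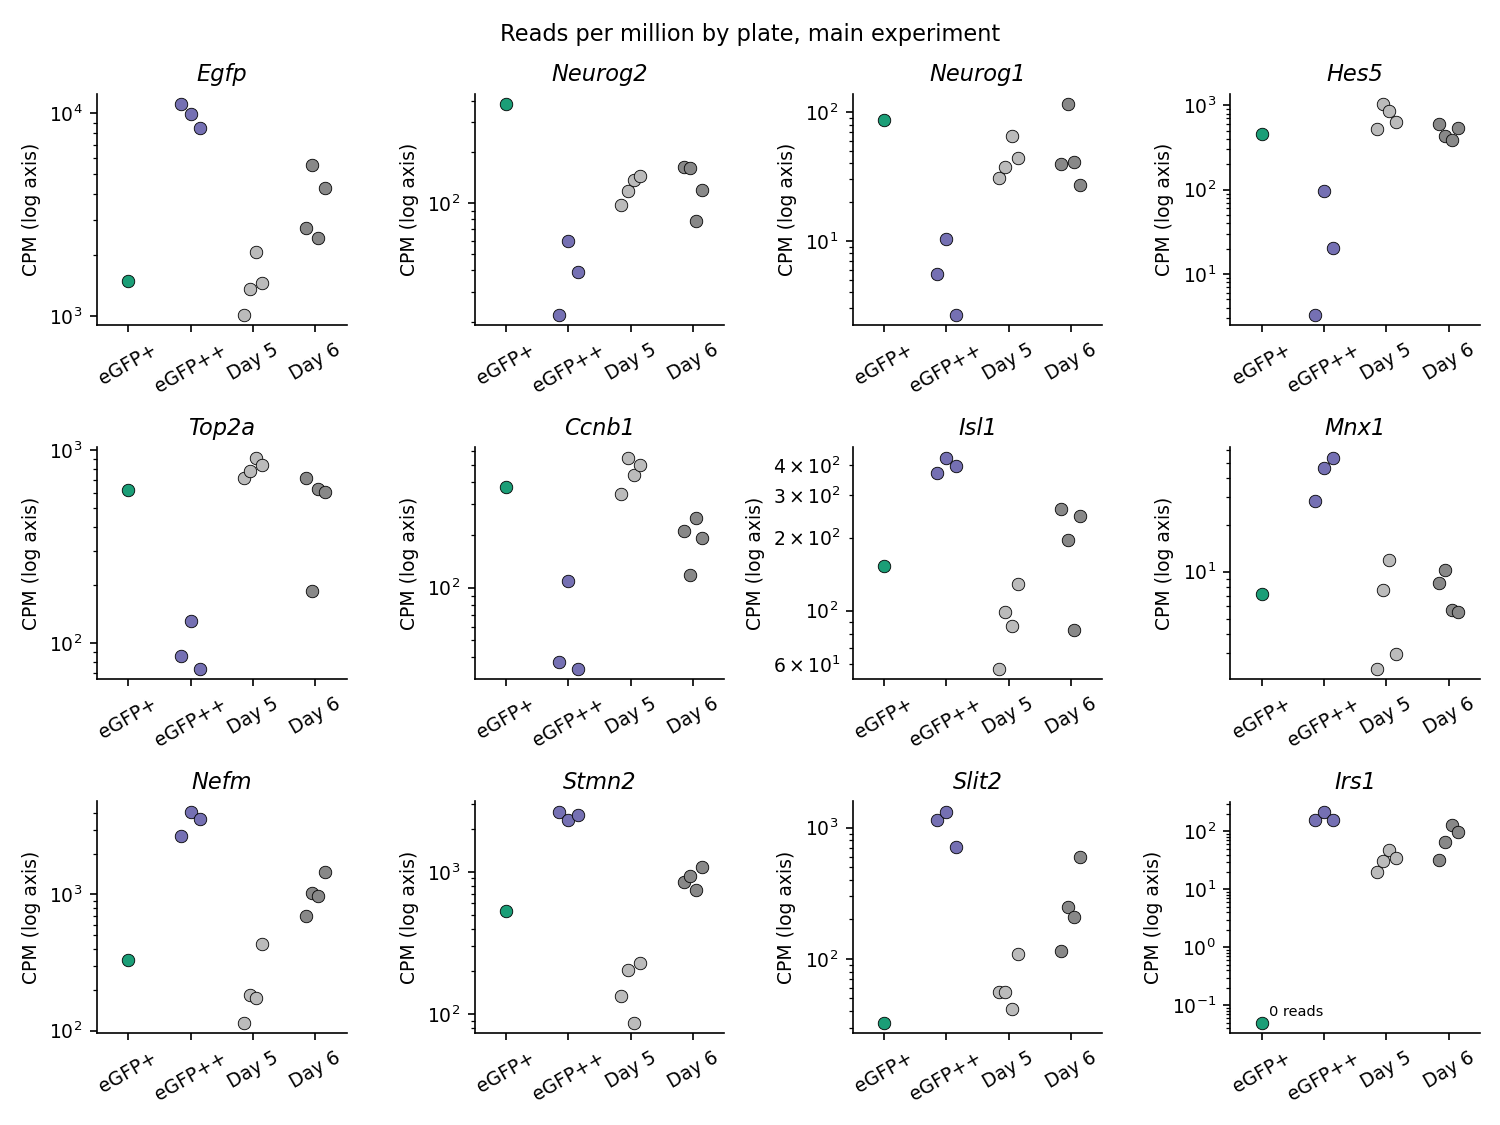
CPM (log axis) of 12 genes on each plate of the main experiment: the eGFP+ plate, the 3 eGFP++ plates, and the 4 unselected plates each of Day 5 and Day 6, 1 point per plate. Neurog2 on the eGFP+ plate lies above every other plate shown, Slit2 lies below every other plate shown, and Irs1, with 0 reads, is drawn at the foot of its axis.

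Over the whole table, 7327 genes had a mean of at least 10 CPM over the 4 sorted plates and a read in at least 10 of their cells. A gene was called higher where the eGFP+ plate lay at least 2-fold above the highest eGFP++ plate, and lower where it lay at least 2-fold below the lowest. By this rule 5.08% of the tested genes were higher and 18.8%, or 1377, were lower. The entry mean takes in 1 eGFP+ and 3 eGFP++ plates. A gene read only on eGFP+ thus needed a higher CPM to be tested than a gene spread over the eGFP++ plates. For a tested gene with an eGFP++ mean under 10 CPM, the entry filter alone fixed a ratio above 0. For a tested gene under 10 CPM on eGFP+, it fixed a ratio below 0. With no filter on genes 8.75% were higher and 16.8% lower. The median log2 ratio of eGFP+ to the mean of the eGFP++ plates over all tested genes was -0.43, with -0.23, -0.52 and -0.41 against plates 1, 2 and 3. Scaling by TMM factors, which centre the bulk of genes, moved that median by 0.36, and 633 genes were then higher and 963 lower, so that the higher genes made up 39.7% of the called ones in place of 21.3%. Against eGFP++ plate 1 alone, 902 genes were higher and 1579 lower (36.4% higher among those called). Scaling to spike-in reads moved the median of all tested genes by -1.01, with 74 genes higher and 2237 lower, so list medians are to be read beside that of all genes. A second call asked that the share of thinned cells with a read lie at least 10 percentage points outside the range of the eGFP++ plates. By share alone 0.45% of the tested genes were higher and 10.4% lower. Both calls together were met by 26 genes that were higher (0.355%) and by 4.35% of the tested genes that were lower.

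On the eGFP+ plate 64 of the tested genes had 0 reads and another 42 had 1 to 3 reads. Plate sums below 3 reads on any plate were set to 3 reads, which is 0.18 CPM on the eGFP+ plate, before any ratio was taken, so that ratios against 0 are bounds.

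**Figure D2:**
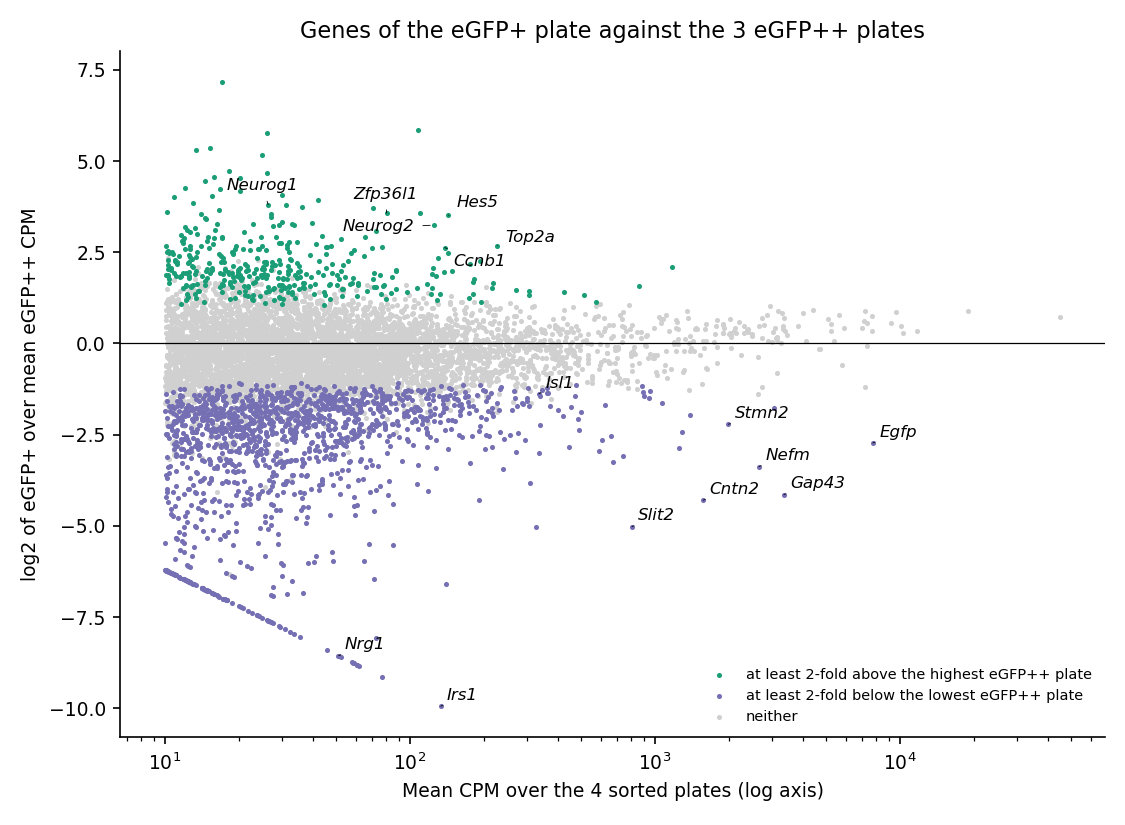
Log2 ratio of eGFP+ CPM to the mean eGFP++ CPM against the mean CPM over the 4 sorted plates (log axis), 1 point per tested gene. The genes called higher (5.08%) and the 1377 called lower (18.8%) are coloured, and the straight line of points at the lower left holds genes whose eGFP+ sum was set to 3 reads.

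Proneural genes stood among the genes above the eGFP++ plates. Of 19 genes on a list of neurogenic factors, 13 were tested, 4 were higher (Neurog1, Neurog2, Btg2 and Gadd45g) and none was lower. The higher genes made up 30.8% of those tested, beside 5.08% over the whole table. Neurog1, with a mean of 6.20 CPM on the eGFP++ plates, could enter only through its eGFP+ level. The filter thus favours ratios above 0 in this list. The median log2 ratio of the list was 0.72, with 0.78, 1.09 and 0.77 against eGFP++ plates 1, 2 and 3, and 12 of the 13 lay above 0. With spike-in scaling that median was 0.0094, beside -1.44 for all tested genes. Neurog2 (chromosome 3, 127633135 to 127635631 on GRCm38) had a log2 ratio of 2.68 to the nearest eGFP++ plate, plate 2. It was detected in 28.9% of thinned eGFP+ cells (19.5% to 39.9%), against 5.32%, 17.02% and 10.6% on the eGFP++ plates. A single eGFP+ cell held 39.8% of its reads, and with the cell of most reads left out on every plate the levels were 232.01 CPM on the eGFP+ plate, against 8.46, 47.6 and 30.6 CPM. Neurog2 was still called higher without those cells.

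Neurog1, a close relative that specifies overlapping sets of neurons, stood at 86.8 CPM on the eGFP+ plate and at 5.57, 10.4 and 2.68 CPM on the eGFP++ plates. Its reads were found in 15.7% of eGFP+ cells, against 2.13%, 4.26% and 0% of eGFP++ cells. Btg2, an antiproliferative gene switched on in progenitors that are about to give neurons, stood at 338.9 CPM on the eGFP+ plate, against 106.8, 71.9 and 76.2 CPM. Gadd45g, a stress and differentiation gene that marks newborn neurons, stood at 800.0 CPM on the eGFP+ plate, against 253.7, 282.4 and 365.2 CPM. In all 4 genes the eGFP+ plate lay above every eGFP++ plate. Not every neurogenic factor was called. Neurod1, which acts later in neuron differentiation, stood at 195.997 CPM on the eGFP+ plate, within the 173.1, 210.5 and 155.7 CPM of the eGFP++ plates. Neurod4 stood at 44.02 CPM on the eGFP+ plate, against 15.01, 14.9 and 26.4 CPM, above every eGFP++ plate but under the 2-fold limit. With the cell of most reads left out on every plate, Neurod4 stood at 33.6 CPM on the eGFP+ plate, against 8.12, 12.6 and 11.5 CPM, and met that limit.

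The Notch pathway, through which neighbouring cells keep each other from differentiating, had 11 of 20 listed genes tested. Of these 6 were higher (Notch1, Hes1, Hes5, Hey1, Nrarp and Maml1) and 1 was lower (Dner), which is 54.5% and 9.09% of the tested members, beside 5.08% higher and 18.8% lower over all tested genes. The median log2 ratio was 1.72, with 2.78, 1.77 and 1.45 against eGFP++ plates 1, 2 and 3. Hes1, low on the eGFP++ plates, could enter only through its eGFP+ level, so the filter favours ratios above 0 in this list too. Hes5, a direct Notch target and repressor of proneural genes, stood at 454.7 CPM on the eGFP+ plate, against 3.29, 95.6 and 20.3 CPM on the eGFP++ plates. Reads of it were seen in 36.1% of eGFP+ cells (25.9% to 47.4%), against 0%, 6.38% and 4.26% of eGFP++ cells. Hes1, its relative, stood at 101.6 CPM on the eGFP+ plate, against 5.65, 2.40 and 10.2 CPM. The receptor gene Notch1 stood at 62.8 CPM on the eGFP+ plate, against 6.72, 23.2 and 10.1 CPM, but 1 cell held 56.4% of its eGFP+ reads and without the cell of most reads it was no longer called.

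No listed ligand gene of the pathway was called higher. Dll1, the ligand of newborn neurons, stood at 43.2 CPM on the eGFP+ plate, against 6.29, 9.76 and 23.3 CPM, above every eGFP++ plate but under the 2-fold limit. With the cell of most reads left out on every plate, Dll1 met that limit, at 32.9 CPM on the eGFP+ plate, against 3.10, 5.94 and 14.4 CPM. Dll3, which acts within the cell that makes it, stood at 30.4 CPM on the eGFP+ plate, below the 45.4, 107.2 and 53.3 CPM of the eGFP++ plates. Dner, a transmembrane Notch ligand of neurons, stood at 1.02 CPM on the eGFP+ plate, against 35.9, 11.9 and 13.2 CPM. The call of Maml1, a coactivator of the Notch complex, rested on 1 cell that held 92.2% of its eGFP+ reads. Without the cell of most reads, Maml1 stood at 16.9 CPM on the eGFP+ plate, against 10.7, 32.2 and 10.8 CPM, and the log2 ratio was -0.082.

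Neural progenitor genes differed with the Notch targets, some of which are on both lists. Of 20 listed genes 14 were tested, 8 were higher (Sox2, Pax6, Fabp7, Hes1, Hes5, Id1, Rfx4 and Zfp36l1) and none was lower. Of the tested members 57.1% were thus higher, beside 5.08% of all tested genes. Their median log2 ratio was 2.04, with 2.37, 1.59 and 2.36 against eGFP++ plates 1, 2 and 3. Members low on the eGFP++ plates, such as Hes1, Sox2 and Rfx4, could enter only through a high eGFP+ level. The filter thus favours ratios above 0 here, and the share higher and the median are set by it in part. Zfp36l1, an RNA-binding protein that speeds the decay of messages with AU-rich ends, was detected in 32.5% of eGFP+ cells, against 5.32%, 6.38% and 4.26% of eGFP++ cells. Its level was 256.4 CPM on the eGFP+ plate, against 30.9, 24.2 and 9.52 CPM. Sox2, the factor that maintains neural progenitors, stood at 36.5 CPM on the eGFP+ plate, against 8.57, 11.7 and 3.53 CPM. Rfx4, a factor of the ventricular zone, stood at 69.3 CPM on the eGFP+ plate, against 6.29, 4.90 and 0 CPM. Nes, an intermediate filament of progenitors, stood at 10.7 CPM on the eGFP+ plate, below the 12.005, 19.01 and 14.02 CPM of the eGFP++ plates, and was not called.

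Genes that pattern the ventral progenitor domains were mostly too low to test. Of 15 listed genes 4 were tested, and Olig1 was higher, at 64.7 CPM on the eGFP+ plate, against 2.86, 14.8 and 14.8 CPM, with 58.98% of its eGFP+ reads in 1 cell. Olig2, which defines motor neuron progenitors, stood at 36.7 CPM on the eGFP+ plate, against 14.9, 25.1 and 9.74 CPM, and was not called. It was detected in 12.05% of eGFP+ cells, against 4.26%, 10.6% and 2.13% of eGFP++ cells. Irx5 and Lmo4, the other tested genes of the list, lay within the range of the eGFP++ plates, at 34.8 CPM for Irx5 on the eGFP+ plate against 20.3, 39.9 and 60.6 CPM, and at 68.6 CPM for Lmo4 against 12.6, 75.9 and 31.6 CPM. The median of the list was 0.96, with 1.87, 0.20 and 1.52 against eGFP++ plates 1, 2 and 3. It turned to -0.07 with spike-in scaling, beside -1.44 for all tested genes.

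The 12 genes highest over the nearest eGFP++ plate, among those that met both calls and had no single dominant cell, held further roles. Mdk, the heparin-binding growth factor midkine, was the most abundant of them at 2758 CPM on the eGFP+ plate, against 644, 802 and 498 CPM on the eGFP++ plates. Fgfr3, an FGF receptor of ventricular zone cells, stood at 67.6 CPM on the eGFP+ plate, against 12.4, 16.7 and 2.91 CPM. Fgfbp3, a secreted FGF carrier, stood at 102.5 CPM on the eGFP+ plate, against 3.79, 18.1 and 0.342 CPM. Both lay above every eGFP++ plate. Sfrp2, a secreted modulator of Wnt signals, stood at 122.4 CPM on the eGFP+ plate, against 8.22, 22.4 and 6.61 CPM. Dhrs3, which turns retinaldehyde back into retinol and so limits retinoic acid, stood at 126.5 CPM on the eGFP+ plate, against 19.2, 17.4 and 12.5 CPM. Id1, an inhibitor of proneural factors, stood at 117.2 CPM on the eGFP+ plate, against 6.22, 31.9 and 25.7 CPM. Pipox, a peroxisomal oxidase, stood at 84.7 CPM on the eGFP+ plate, against 8.36, 13.3 and 1.48 CPM. Acot1, an acyl-CoA thioesterase, stood at 328.1 CPM on the eGFP+ plate, against 64.2, 63.2 and 65.4 CPM, but it shares sequence with a near-identical neighbour and its value is uncertain. The remaining genes of the 12 were Neurog1, Zfp36l1, Hes5 and Rrm2.

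Genes of DNA replication were called higher more often than the 5.08% over the whole table. Of 26 S phase genes 21 were tested, 11 were higher (among them Mcm5, Pcna, Gins2, Rrm2, Slbp, Cdca7, Prim1, Fen1, Hells and Clspn) and 1 was lower (Ccne1). The list median, as log2 ratio, was 1.42, with 1.03, 1.56 and 1.67 against eGFP++ plates 1, 2 and 3. Clspn, low on the eGFP++ plates, could enter only through its eGFP+ level, so the filter favours ratios above 0 in this list. Rrm2, the regulated subunit of ribonucleotide reductase, stood at 370.8 CPM on the eGFP+ plate, against 82.9, 96.01 and 20.7 CPM on the eGFP++ plates. A read was present in 34.9% of eGFP+ cells, against 6.38%, 12.8% and 7.45% of eGFP++ cells. Cdca7, a gene of S phase chromatin, stood at 101.998 CPM on the eGFP+ plate, against 15.9, 6.70 and 9.74 CPM. Clspn, a checkpoint adaptor at replication forks, had 74.4% of its eGFP+ reads in 1 cell, so its level of 52.8 CPM on the eGFP+ plate, against 0.786, 8.66 and 0 CPM, rests largely on that cell. Ccne1, the cyclin that starts S phase, ran the other way at 23.9 CPM on the eGFP+ plate, against 60.4, 49.7 and 76.4 CPM.

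Genes of G2 and mitosis had the highest median of the cell cycle lists. Of 41 listed genes 30 were tested, 21 were higher (70%, beside 5.08% of all tested genes) and none was lower, and all 30 had a log2 ratio above 0. The other 11 missed the entry filter. A member too low on the eGFP++ plates could enter only through a high eGFP+ level, so the filter favours ratios above 0 in this list. The median was 2.03, with 2.13, 1.56 and 2.84 against eGFP++ plates 1, 2 and 3. Top2a, the topoisomerase that untangles sister chromosomes (chromosome 11, 98992943 to 99024189), stood at 618 CPM on the eGFP+ plate, against 85.6, 129.7 and 73.7 CPM. Its reads were found in 27.7% of eGFP+ cells (18.4% to 38.6%), against 10.6%, 9.57% and 6.38% of eGFP++ cells. Ccnb1 (chromosome 13, 100778650 to 100786570) was detected in 15.7% of eGFP+ cells, against 3.19%, 8.51% and 2.13% of eGFP++ cells, which missed the limit of 10 percentage points. A single eGFP+ cell held 33.5% of the Ccnb1 reads, and with the cell of most reads left out on every plate the levels were 252.9 CPM on the eGFP+ plate, against 10.8, 42.5 and 1.4996 CPM. Mki67, the proliferation antigen, stood at 41.8 CPM on the eGFP+ plate, against 0, 4.45 and 1.82 CPM. Ccna2, the cyclin of S and G2 phase, stood at 83.8 CPM on the eGFP+ plate, against 8.79, 14.6 and 3.48 CPM. The eGFP+ plate was the highest of the 4 sorted plates for each of these genes.

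The mitotic reads sat in a minority of cells. At least 5 listed G2/M genes were detected in 22 of 83 thinned eGFP+ cells (26.5%, exact binomial 95% interval 17.4% to 37.3%). On eGFP++ plates 1, 2 and 3 this held for 7 (7.45%), 8 (8.51%) and 3 (3.19%) of 94 cells each. On unselected Day 6 plates 1 to 4 the share was 39.8%, 19.1%, 35.6% and 39.1%, so the eGFP+ share lay inside their range. Just under the limit, at 4 genes, lay 3 eGFP+ cells, against 3, 8 and 2 cells of the eGFP++ plates, so that eGFP++ plate 2 held as many cells there as at or above the limit. The upper intervals of the eGFP++ plates ended at 14.7%, 16.1% and 9.04%. With only the cells under that limit, the list median was 0.57, a value that the choice of those cells sets in part, and Ccnb1 and Ccna2 had log2 ratios of -1.92 and -2.45. Ccnd1 and Ccnd2, D cyclins that carry cells through G1 phase, were higher too, while Ccnd3 was too low to test. Ccnd1 stood at 57.98 CPM on the eGFP+ plate, against 0.214, 1.90 and 7.07 CPM, and Ccnd2 at 89.2 CPM on the eGFP+ plate, against 17.1, 16.6 and 5.19 CPM. Ccng2, a cyclin of cells that have stopped dividing, stood at 54.1 CPM on the eGFP+ plate, against 231.2, 252.1 and 394.1 CPM. Of the 11 tested genes on that list of D cyclins and cycle exit genes, 2 were higher and 2 lower, which is 18.2% each. Over all tested genes 5.08% were higher and 18.8% lower, so the share lower was close to that of all genes. The list had a median log2 ratio of 0.13 that turned to -0.82 with spike-in scaling.

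G2/M genes are known to share a promoter element, the cell cycle genes homology region (CHR), through which a repressor complex silences them in resting cells and activators turn them on before mitosis. Because the G2/M genes moved together here, the stretches before the start sites of 4 genes called higher are shown, with the letters TTTGAA or their reverse complement TTCAAA in capitals. The sequences are the 100 bases before the start site from RefSeq promoters on GRCm38.p6, on the strand of the gene, at chr2:164769829-164769928 (plus strand) for Ube2c, chr4:118437344-118437443 (minus strand) for Cdc20, chr11:99024190-99024289 (minus strand) for Top2a and chr10:69352913-69353012 (minus strand) for Cdk1.
Ube2c: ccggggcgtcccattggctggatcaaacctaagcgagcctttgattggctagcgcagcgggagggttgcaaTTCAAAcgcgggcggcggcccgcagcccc
Cdc20: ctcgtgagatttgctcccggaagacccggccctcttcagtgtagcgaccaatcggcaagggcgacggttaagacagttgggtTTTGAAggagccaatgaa
Top2a: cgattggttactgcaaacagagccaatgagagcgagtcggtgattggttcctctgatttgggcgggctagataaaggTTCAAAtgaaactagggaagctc
Cdk1: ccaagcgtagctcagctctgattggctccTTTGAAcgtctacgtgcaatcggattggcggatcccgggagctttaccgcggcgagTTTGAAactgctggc

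In these windows the match nearest to the start site began 29 bases before it in Ube2c, 18 in Cdc20, 23 in Top2a and 15 in Cdk1, which held 2 matches. A promoter window of 250 bases before to 50 after the start was found for 36 of the 41 listed G2/M genes, and 26 of them (72.2%) held the 6 letters on either strand. Of all 27025 genes with a window 20.2% held them, and of 5624 tested genes with a window 13.4%. The genes shown were chosen among those called higher, so their higher levels on the eGFP+ plate follow from that choice. Prc1, a listed G2/M gene that was not called, also held a match, which began 30 bases before its start site. Whether matches were more frequent in called than in other members of the list was not tested. Ube2c, which loads ubiquitin onto mitotic proteins, stood at 154.4 CPM on the eGFP+ plate, against 35.9, 76.3 and 42.6 CPM. Cdc20, its partner that selects those proteins, stood at 61.8 CPM on the eGFP+ plate, against 20.9, 21.3 and 27.6 CPM. Cdk1, the mitotic kinase, stood at 46.97 CPM on the eGFP+ plate, against 20.4, 13.1 and 0.285 CPM. A match of letters describes the window and does not show that a factor binds there.

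The same was done for Hes5, a Notch target whose transcript was higher here, with the letters GTGGGAA of the core site of the Notch effector RBPJ. Its 100 bases before the start site lie at chr4:154960823-154960922 (plus strand), and the match, in capitals, began 83 bases before the start.
Hes5: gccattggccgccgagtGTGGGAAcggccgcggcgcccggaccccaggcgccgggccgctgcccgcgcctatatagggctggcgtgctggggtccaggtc
Of 16 Notch pathway genes with a window 3 held these letters on either strand (18.8%), against 7.25% of all genes with a window.

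Most of the tested transcription factors of motor neurons were lower on the eGFP+ plate. Of 20 listed genes 8 were tested, 6 were lower (Isl1, Isl2, Lhx3, Lhx4, Mnx1 and Pou3f1) and none was higher, beside 18.8% lower over all tested genes. Their median log2 ratio was -2.59, with -2.14, -2.72 and -2.83 against eGFP++ plates 1, 2 and 3. Foxp1, a factor of limb-level motor columns, was the 1 tested member above the eGFP++ plates, at 109.8 CPM on the eGFP+ plate, against 43.9, 54.2 and 83.02 CPM, and was not called. Isl1, the LIM factor that starts the motor neuron programme, stood at 152.2 CPM on the eGFP+ plate, against 369.1, 426.4 and 393.9 CPM. It was detected in 16.9% of eGFP+ cells (9.54% to 26.7%), against 44.7%, 64.9% and 47.9% of eGFP++ cells. Lhx3, its partner in the motor neuron complex, stood at 50.4 CPM on the eGFP+ plate, against 244.7, 337.8 and 338.03 CPM. Mnx1, which holds the motor neuron fate against that of interneurons, stood at 7.16 CPM on the eGFP+ plate, against 28.5, 46.4 and 53.6 CPM. Isl2, which follows Isl1, had 0 reads on the eGFP+ plate and 57.6, 37.02 and 35.3 CPM on the eGFP++ plates. Reads of it were seen in 0 of 83 eGFP+ cells, with an exact binomial interval for the share of cells with a read of 0% to 4.35%, against 17.02%, 12.8% and 18.1% of eGFP++ cells. The eGFP+ plate lay below every eGFP++ plate for Isl1, Lhx3, Mnx1 and Isl2, and Isl1 was the least reduced of those named.

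Some effector genes of motor neurons were lower too. Of 17 cholinergic and effector genes 9 were tested, 4 were lower (Chat, Slc18a3, Prph and Slc10a4) and 1 was higher (Chrnb4), with a median log2 ratio of -1.55. That is 44.4% lower and 11.1% higher, beside 18.8% and 5.08% over all tested genes. Slc10a4, a transporter of cholinergic vesicles, stood at 13.1 CPM on the eGFP+ plate, against 427.7, 499 and 363.2 CPM. A read was present in 2.41% of eGFP+ cells, against 64.9%, 70.2% and 71.3% of eGFP++ cells. Slc18a3, the vesicular acetylcholine transporter, stood at 34.5 CPM on the eGFP+ plate, against 185.9, 348.3 and 237.9 CPM. Chat, the enzyme that makes acetylcholine, stood at 4.39 CPM on the eGFP+ plate, against 15.3, 25.9 and 16.7 CPM, so all 3 genes lay below every eGFP++ plate. Chrnb4, a nicotinic receptor subunit, ran the other way at 27.7 CPM on the eGFP+ plate, against 2.64, 11.8 and 0.741 CPM, with 36.7% of its eGFP+ reads in 1 cell.

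**Figure D3:**
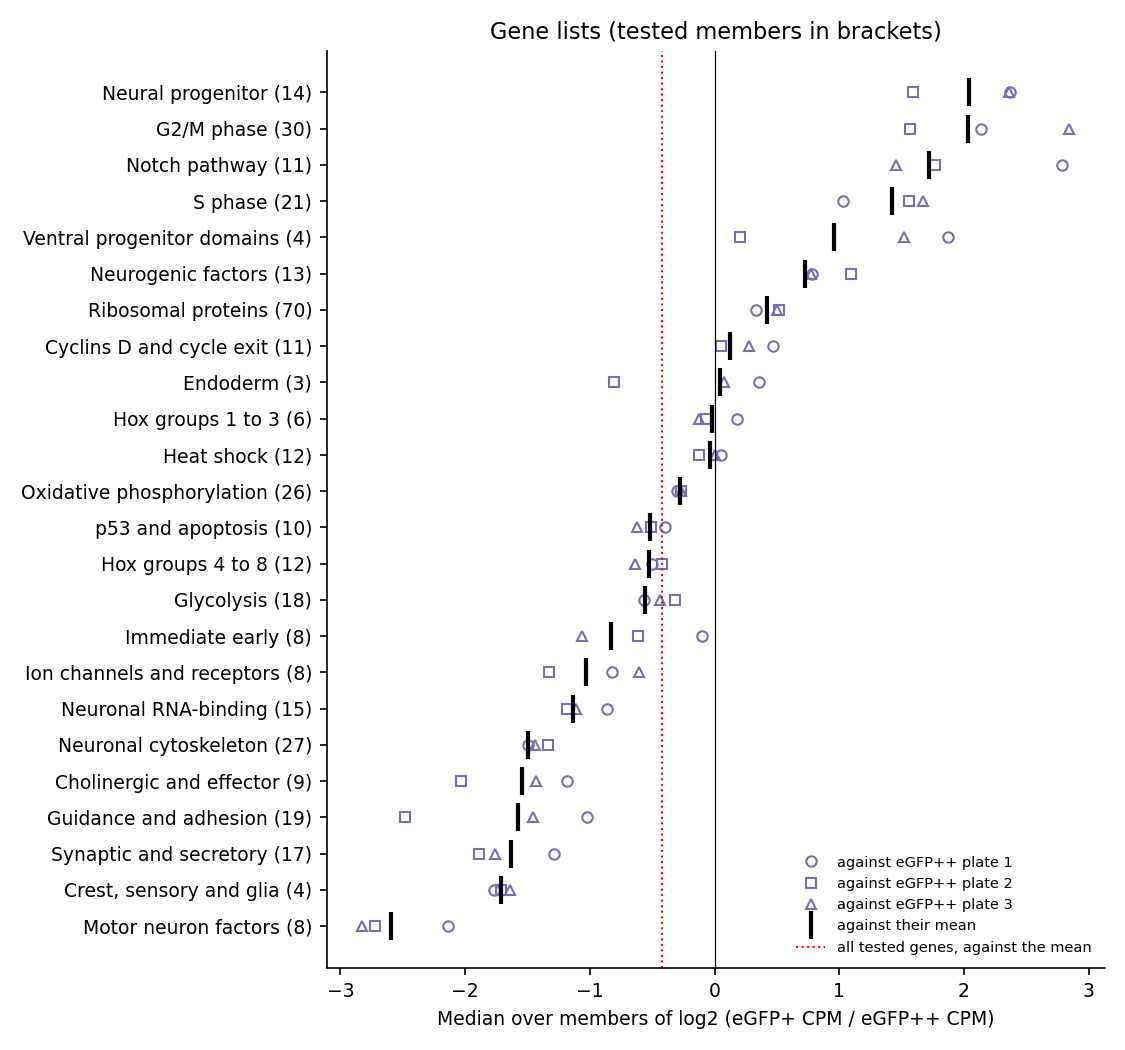
Median log2 ratio of eGFP+ to eGFP++ CPM over the tested members of each list with at least 3 tested members (their number in brackets), against eGFP++ plates 1, 2 and 3 and against their mean. The G2/M median lies between 1.56 and 2.84 against single plates and that of motor neuron factors between -2.83 and -2.14, while the dotted line marks -0.43 for all tested genes.

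Genes of the neuronal cytoskeleton were called lower far more often than the 18.8% over the whole table. Of 28 listed genes 27 were tested, 18 were lower, none was higher and all 27 had a log2 ratio below 0. The median was -1.50, with -1.49, -1.34 and -1.44 against eGFP++ plates 1, 2 and 3. Nefm (chromosome 14, 68082590 to 68124846) had a log2 ratio of -3.02 to the nearest eGFP++ plate, plate 1, and was detected in 16.9% of eGFP+ cells (9.54% to 26.7%), against 74.5%, 94.7% and 93.6% of eGFP++ cells. Nefl, the light neurofilament subunit, stood at 90.2 CPM on the eGFP+ plate, against 959.8, 747 and 891 CPM. Gap43, a protein of growing axon tips, stood at 248.8 CPM on the eGFP+ plate, against 3867, 3526 and 5773 CPM. Stmn2, a regulator of axonal microtubules, stood at 533 CPM on the eGFP+ plate, against 2626, 2299 and 2502 CPM. The eGFP+ plate lay below all eGFP++ plates in each case. Tubb3, the neuronal tubulin, was detected in 25.3% of eGFP+ cells, against 77.7%, 85.1% and 88.3% of eGFP++ cells. Map1b, a microtubule protein of early axons, stood at 424.2 CPM on the eGFP+ plate, against 773, 887 and 978 CPM, which missed the 2-fold limit. Tubulin genes share sequence, so reads of single members of that family are uncertain.

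Guidance and adhesion genes included abundant transcripts of the eGFP++ plates. Of 28 listed genes 19 were tested, 9 were lower (47.4%, beside 18.8% of all tested genes) and 1 was higher (5.26%, beside 5.08%), with a median log2 ratio of -1.58 and -1.02, -2.48 and -1.46 against eGFP++ plates 1, 2 and 3. Slit2, a secreted repellent that motor neurons make, stood at 32.7 CPM on the eGFP+ plate, against 1149.8, 1317 and 717 CPM. It was detected in 2.41% of eGFP+ cells, against 54.3%, 74.5% and 68.1% of eGFP++ cells. Slit3, its relative, stood at 1.20 CPM on the eGFP+ plate, against 52.2, 73.8 and 64.3 CPM. Cntn2, an adhesion protein of outgrowing axons, stood at 104.8 CPM on the eGFP+ plate, against 1894, 1937 and 2349.8 CPM. Nrp1, a semaphorin receptor, stood at 1.92 CPM on the eGFP+ plate, against 281.5, 133.6 and 144.5 CPM. Chl1, an adhesion protein of the L1 family, was the exception at 67.2 CPM on the eGFP+ plate, against 0.0715, 0.901 and 0.285 CPM. Chl1 reads came from 8.43% of eGFP+ cells, against 0%, 0% and 1.06% of eGFP++ cells, and without the cell of most reads its level was 47.4 CPM on the eGFP+ plate.

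Of 29 synaptic and secretory genes 17 were tested, 10 were lower (58.8%, beside 18.8% of all tested genes) and none was higher, with a median log2 ratio of -1.63 and -1.29, -1.89 and -1.76 against eGFP++ plates 1, 2 and 3. Scg2, a secretory granule protein, stood at 1.98 CPM on the eGFP+ plate, against 73.3, 35.9 and 160.4 CPM. Syt1, the calcium sensor of vesicle release, stood at 3.25 CPM on the eGFP+ plate, against 16.1, 31.9 and 106.96 CPM. Cplx1, which clamps the fusion machinery, had 0 reads on the eGFP+ plate and 6.50, 19.8 and 15.3 CPM on the eGFP++ plates. Chga, the granule protein chromogranin A, had 2 reads on the eGFP+ plate (0.1203 CPM), against 18.01, 17.7 and 21.2 CPM. Snap25, a core fusion protein, did not follow them, at 19.7 CPM on the eGFP+ plate, within the 17.01, 42.2 and 19.8 CPM of the eGFP++ plates.

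RNA-binding proteins of neurons and ion channels had medians closer to that of all genes in the main setting. With the cell of most reads of each gene left out, their medians were -2.36 and -2.15. Cytoskeleton genes then had -1.72 and all tested genes -0.66, so that order did not hold there. Of 17 RNA-binding genes 15 were tested, 5 were lower (Elavl2, Celf3, Celf5, Rbfox3 and Nova2) and none was higher, with a median log2 ratio of -1.13. The lower genes were 33.3% of those tested, beside 18.8% over the whole table. Elavl2, which stabilises neuronal messages, stood at 28.4 CPM on the eGFP+ plate, against 372.8, 450.4 and 387.9 CPM. Celf3, a splicing factor, stood at 56.7 CPM on the eGFP+ plate, against 243.3, 372.4 and 347.9 CPM, and Celf5 had 4 reads on the eGFP+ plate (0.241 CPM), against 15.2, 17.1 and 17.9 CPM. Of 23 channel and receptor genes 8 were tested, 3 were lower (among them Scn3b and Cacna2d1) and 1 was higher (Cacna1a), with a median of -1.03, beside 18.8% lower and 5.08% higher over all tested genes. Cacna2d1, a calcium channel subunit, stood at 12.7 CPM on the eGFP+ plate, against 65.3, 65.7 and 225.8 CPM. Scn3b, a sodium channel subunit, stood at 2.65 CPM on the eGFP+ plate, against 19.7, 13.2 and 13.2 CPM. Cacna1a stood at 22.5 CPM on the eGFP+ plate, against 7.79, 9.11 and 9.57 CPM, with 51.1% of its eGFP+ reads in 1 cell.

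Among all genes, the 12 lowest that met both calls and had no single dominant cell held 0 to 32 reads each on the eGFP+ plate. Irs1, the adaptor of insulin and IGF receptors, had 0 reads on the eGFP+ plate, against 158.2, 216.3 and 159.2 CPM on the eGFP++ plates, at least 877-fold lower than the lowest of them. Its reads were found in 0 of 83 eGFP+ cells, against 37.2%, 40.4% and 34.04% of eGFP++ cells. Nrg1, a growth factor that motor axons give to muscle and glia, had 0 reads on the eGFP+ plate, against 69.7, 60.8 and 73.8 CPM. Crtac1, an extracellular matrix protein, had 0 reads on the eGFP+ plate, against 68.3, 79.3 and 85.5 CPM, and Mfap3l, a membrane protein, had 0 reads against 67.3, 95.9 and 79.4 CPM. Uts2b, a neuropeptide of the urotensin family, had 0 reads on the eGFP+ plate, against 124.7, 49.2 and 74.5 CPM. These 5 genes had reads on all 3 eGFP++ plates. Megf11, a membrane receptor with EGF repeats, had 1 read on the eGFP+ plate, against 78.7, 129.5 and 99.4 CPM, and Mtus1, a microtubule protein, had 1 read against 51.7, 68.3 and 123.5 CPM. Ston2, an endocytic adaptor, had 2 reads on the eGFP+ plate, against 68.5, 82.2 and 57.9 CPM. Prph, the intermediate filament peripherin, stood at 1.08 CPM on the eGFP+ plate, against 138.8, 76.7 and 68.04 CPM. Raph1, an actin regulator of growing processes, stood at 0.782 CPM on the eGFP+ plate, against 41.6, 66.9 and 43.99 CPM, and Rbms3, an RNA-binding protein, at 1.02 CPM against 72.8, 59.2 and 60.6 CPM. Nrp1, given above, completes the 12.

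**Figure D4:**
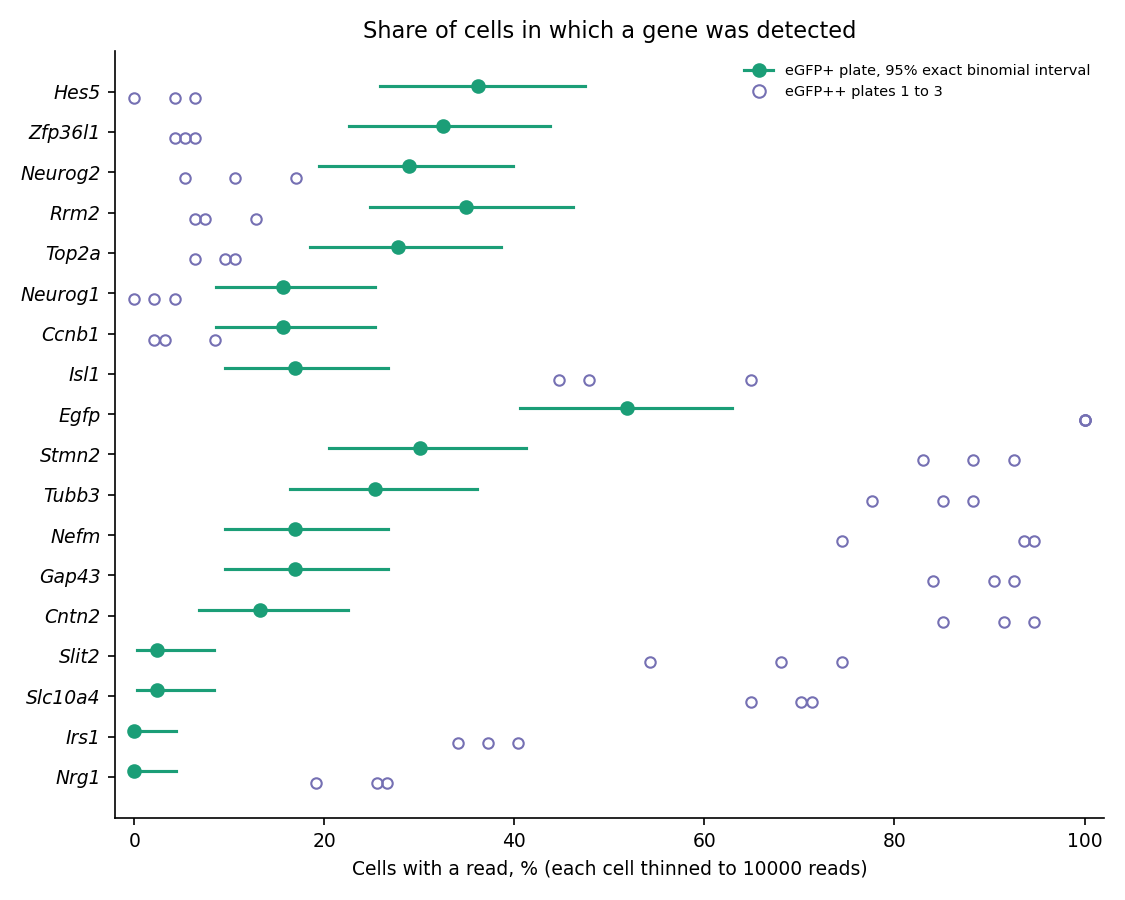
Share of thinned cells with a read of 18 genes, on the eGFP+ plate (filled points with exact binomial 95% intervals) and on eGFP++ plates 1 to 3 (open points). Hes5 was detected in 36.1% of eGFP+ cells, against 0% to 6.38% on the eGFP++ plates, and Cntn2 in 13.3% of eGFP+ cells, against 85.1% to 94.7%.

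Of the listed Hox genes, which mark position along the body axis, 1 was called higher and 1 lower by level. Of 8 Hox genes of groups 1 to 3, which mark hindbrain and upper neck levels, 6 were tested and 1 was higher, with a median log2 ratio of -0.02 that turned to 0.32 with TMM scaling. Hoxb2 stood at 329.8 CPM on the eGFP+ plate, against 142.3, 160.1 and 146.7 CPM. Of 15 Hox genes of groups 4 to 8, which mark cervical and upper trunk levels, 12 were tested and 1 was lower, with a median of -0.53 beside -0.43 for all tested genes. Hoxc4 stood at 89.8 CPM on the eGFP+ plate, against 213.2, 280.9 and 249.9 CPM. Hoxa5 stood at 513 CPM on the eGFP+ plate, against 884, 600.5 and 734 CPM, and Hoxb5 at 402.04 CPM on the eGFP+ plate, against 741, 481 and 744 CPM. Hoxa5 and Hoxb5 lay below all eGFP++ plates but missed the 2-fold limit. By share of cells, 2 of the 6 tested genes of groups 1 to 3 and 3 of the 12 of groups 4 to 8 were lower and none was higher, beside 10.4% lower over all tested genes. Hoxa5 was detected in 56.6% of eGFP+ cells, against 75.5%, 79.8% and 77.7% of eGFP++ cells.

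Most markers of other cell types were low on the sorted plates, with exceptions in both gates. Of 19 ventral interneuron genes only 2 were tested, and neither was called. The summed level of that list was 300.6 CPM on the eGFP+ plate, against 120.5, 79.9 and 48.5 CPM on eGFP++ plates 1, 2 and 3 and 93.2 to 519 CPM on the unselected Day 6 plates. Gata3, a factor of V2b interneurons, stood at 17.4 CPM on the eGFP+ plate and had 0 reads on all eGFP++ plates, and it was detected in 6.02% of eGFP+ cells. Tal1, another V2b factor, stood at 63.7 CPM on the eGFP+ plate, with 71.01% of its reads in 1 cell, and had 0 reads on the eGFP++ plates. Lhx1, shared by interneurons and some motor neurons, stood at 55.4 CPM on the eGFP+ plate, within the 66.2, 63.3 and 37.5 CPM of the eGFP++ plates. En1 and Sim1 had 75 and 1 reads on the eGFP+ plate and Evx1 had 0. The part of interneurons in the differences between the gates was not tested.

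Of 18 pluripotency genes, 8 floor plate genes and 18 mesoderm and vessel genes, none was abundant enough to test. Pou5f1, Zfp42, Shh, Foxa2, Sox17, Gata4, Pdgfra and Kdr had 0 reads on the eGFP+ plate. The summed levels on the eGFP+ plate were 40.4 CPM for pluripotency, 6.31 CPM for floor plate and 14.9 CPM for mesoderm and vessel genes. On the eGFP++ plates these sums were 18.7, 16.6 and 14.99 CPM for pluripotency, 2.29, 17.5 and 15.5 CPM for floor plate and 25.8, 8.06 and 8.38 CPM for mesoderm and vessel genes. Of 16 endoderm genes 3 were tested and none was called, and they summed to 92.3 CPM on the eGFP+ plate, against 36.7, 176.7 and 43.3 CPM on the eGFP++ plates. Of 19 genes of neural crest, sensory neurons and glia 4 were tested, 1 was higher (Foxd3) and 3 were lower (among them Ngfr and Mbp). The sum of that list was 98.1 CPM on the eGFP+ plate, below the 145.6, 191.7 and 130.6 CPM of the eGFP++ plates. Foxd3, a factor of neural crest and V1 interneurons, stood at 32.8 CPM on the eGFP+ plate, against 3.501, 4.45 and 0.0570 CPM, with 51.3% of its eGFP+ reads in 1 cell. Sox10, a factor of neural crest and glia, had 0 reads on the eGFP+ plate, against 0, 39.1 and 0 CPM on the eGFP++ plates, and Gfap had 0 reads on the eGFP+ plate. The part of these cell types in the differences between the gates was not tested.

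Few genes of general cell functions were called by their level, while genes of energy metabolism were often called lower by share of cells. Of 74 ribosomal protein genes 70 were tested and none was called, but 64 of the 70 had a log2 ratio above 0, with a median of 0.42 and 0.33, 0.51 and 0.50 against eGFP++ plates 1, 2 and 3, which turned to -0.47 with spike-in scaling, above the -1.44 of all genes. Their summed level was 306041 CPM on the eGFP+ plate, against 233107, 197029 and 205127 CPM on the eGFP++ plates and 237158 to 258388 CPM on the unselected Day 6 plates. The eGFP+ plate thus gave the largest part of its reads to ribosomal protein genes among these plates. Many of these genes have near-identical pseudogenes, and single values are uncertain. Of 26 genes of oxidative phosphorylation 1 was lower, Ndufb9 at 150.6 CPM on the eGFP+ plate, against 407.4, 332.6 and 316.8 CPM, with a list median of -0.28 that turned to 0.07 with TMM scaling. By share of cells 13 of the 26 were lower, beside 10.4% of all tested genes, and none was higher. Thinned eGFP+ cells held fewer genes of any kind, a median of 986, against 1212.5, 1887 and 1701 genes on the eGFP++ plates, and the part of this in the shares was not tested. Of 12 heat shock genes none was called, with a median of -0.03 that turned to 0.28 with TMM scaling, and the chaperone Hspa8 stood at 1691 CPM on the eGFP+ plate, against 1709.9, 2039 and 1723 CPM.

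Of 18 tested glycolysis genes 4 were lower (Slc2a3, Hk1, Pfkp and Eno2) and 1 was higher (Slc2a1), with a median of -0.56. These are 22.2% and 5.56% of the tested members, close to the 18.8% lower and 5.08% higher over all tested genes, while 6 of the 18 were lower by share of cells, beside 10.4%. Eno2 is the neuronal enolase and Slc2a3 the neuronal glucose transporter. Eno2 stood at 301.6 CPM on the eGFP+ plate, against 1607, 1575 and 1673 CPM, and was detected in 28.9% of eGFP+ cells, against 64.9%, 78.7% and 76.6% of eGFP++ cells. Of 10 tested genes of the p53 pathway and apoptosis 3 were lower, among them Trp53inp1 and Zmat3, and 1 was higher (Eda2r), with a median of -0.52, beside 18.8% lower and 5.08% higher over all tested genes. Zmat3, a p53 target, stood at 38.01 CPM on the eGFP+ plate, against 90.6, 158.4 and 131.1 CPM. Of 8 tested immediate early genes 1 was higher, Btg2 as given above, and 1 was lower, Ier3 at 8.78 CPM on the eGFP+ plate, against 26.01, 43.5 and 29.2 CPM. Each is 12.5% of the tested members, beside 5.08% higher and 18.8% lower over all tested genes. The list median was -0.83.

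The eGFP+ plate was also set beside unselected cells of the same experiment. The same rule against the 4 unselected Day 6 plates tested 7759 genes, of which 1.6% were at least 2-fold above the highest plate and 1036 at least 2-fold below the lowest (13.4%). This comparison shares the eGFP+ plate with the one above, so only levels are set side by side. The G2/M genes summed to 3411 CPM on the eGFP+ plate, against 5597 to 6334 CPM on Day 5 and 1939.8 to 3858 CPM on Day 6. The progenitor genes summed to 3083 CPM on the eGFP+ plate, against 3434 to 4569.7 CPM on Day 5 and 3004 to 3706 CPM on Day 6. The eGFP+ plate was thus lower than every Day 5 plate in both sums and inside the Day 6 range.

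The sum of the neurogenic genes stood above both days. The neurogenic list summed to 2325 CPM on the eGFP+ plate, against 714 to 1376 CPM on Day 5 and 1045 to 1712 CPM on Day 6. Neurog2 alone stood at 381.9 CPM on the eGFP+ plate, against 97.3 to 143.8 CPM on Day 5 and 78.4 to 162.7 CPM on Day 6, and met the 2-fold rule. Without the 1 cell with the most reads it stood at 232.01 CPM on the eGFP+ plate, above every plate of both days but no longer 2-fold above the highest Day 6 plate. The unselected plates kept their own highest cells in this comparison, so the levels are not fully alike. Neurog1 stood at 86.8 CPM on the eGFP+ plate, inside the 27.1 to 115.4 CPM of Day 6 and above the 30.7 to 65.2 CPM of Day 5.

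The sum of the cytoskeleton genes lay between the days. The cytoskeleton list summed to 6824 CPM on the eGFP+ plate, against 3494 to 5753 CPM on Day 5 and 11385 to 15776 CPM on Day 6. Stmn2 stood at 533 CPM on the eGFP+ plate, against 87.3 to 227.6 CPM on Day 5 and 740.0 to 1088 CPM on Day 6. The motor neuron factors summed to 431.3 CPM on the eGFP+ plate, inside the 299.2 to 709.9 CPM of Day 6 and above the 202.4 to 389.6 CPM of Day 5, and to 905, 1116 and 1087 CPM on the eGFP++ plates. Isl1 likewise stood at 152.2 CPM on the eGFP+ plate, inside the 83.3 to 261.6 CPM of Day 6 and above the 57.5 to 128.4 CPM of Day 5. Some late genes lay below both days. Slit2 stood at 32.7 CPM on the eGFP+ plate, against 41.7 to 108.7 CPM on Day 5 and 115.9 to 598 CPM on Day 6. Irs1 had 0 reads on the eGFP+ plate, against 19.7 to 46.98 CPM on Day 5 and 32.6 to 128.4 CPM on Day 6.

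Within the eGFP+ plate the cells were not alike. The listed cytoskeleton genes detected per thinned cell had a median of 7 (quartiles 4 and 10), against medians of 16, 20 and 20 on eGFP++ plates 1, 2 and 3. The median number of genes of any kind in a thinned cell was 986 on the eGFP+ plate, against 1212.5, 1887 and 1701, and the part of this difference in the count of cytoskeleton genes was not tested. Of the 43 eGFP+ cells with an Egfp read 7 (16.3%) had at least 10 cytoskeleton genes, while of the 40 cells without an Egfp read 18 (45%) had them. The median number of all genes was 978 in the cells with an Egfp read and 986.5 in those without. On the unselected Day 6 plates the order was the other way, where 71.9% of the cells with an Egfp read and 35.2% of those without had at least 10 cytoskeleton genes. The limit of 10 genes and the pairs below were chosen after the values were seen, and they are given as a description of these cells.

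Pairs of genes in single cells were counted in the same thinned reads. Isl1 was detected in 14 eGFP+ cells, and all 14 also had an Egfp read, against 29 of the 69 cells without Isl1 (42.03%). Neurog2 was detected in 24 cells, of which 19 had an Egfp read (79.2%), against 24 of 59 without Neurog2 (40.7%). Neurog1 was detected in 13 cells, of which 12 had an Egfp read. Isl1, Neurog1 and Neurog2 were thus found mostly in cells that also held reporter reads. Stmn2 was detected in 25 cells, of which 3 had an Egfp read (12%), against 40 of 58 without Stmn2 (68.97%). Nefm was detected in 14 cells, of which 3 had an Egfp read, and all 5 cells with Mnx1 had one. Gap43 and Tubb3, also of the cytoskeleton list, did not split as Stmn2 did. Egfp reads were in 8 of 14 cells with Gap43 (57.1%), against 35 of 69 without it (50.7%). For Tubb3 this was 10 of 21 cells (47.6%), against 33 of 62 (53.2%). On the unselected Day 6 plates 69.2% of the cells with Stmn2 had an Egfp read, and 32 of 76 cells with Neurog2 did (42.1%).

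Hes5 and Top2a, of dividing progenitors, were found together in 14 of the 30 eGFP+ cells with Hes5 (46.7%), against Top2a in 9 of 53 cells without Hes5 (16.98%). Of the 30 cells with Hes5, 14 had an Egfp read. Of the 24 cells with Neurog2, 9 had Top2a, 6 had Isl1, 3 had Stmn2 and 2 had Nefm. On the eGFP++ plates, 25 of 31 cells with Neurog2 had Isl1 and 22 had Nefm. Gata3 was detected in 5 eGFP+ cells, of which 1 had an Egfp read.

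**Figure D5:**
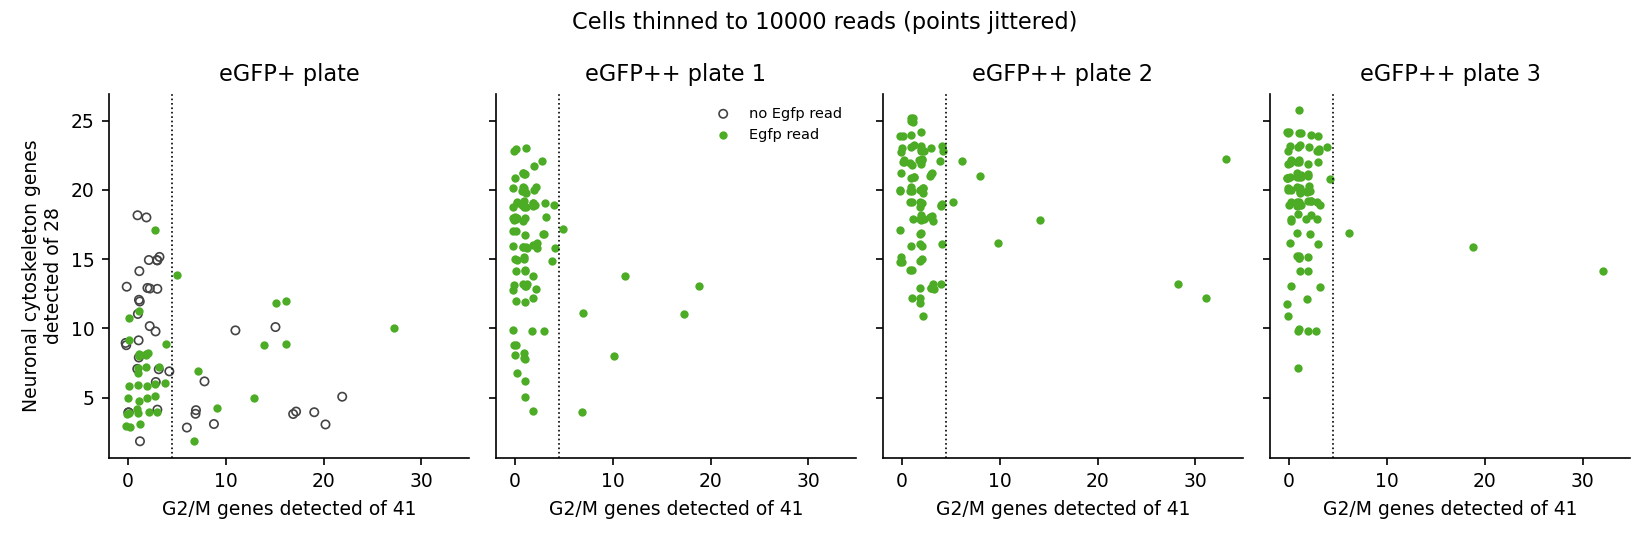
Number of listed neuronal cytoskeleton genes against number of listed G2/M genes detected in each cell after thinning to 10000 reads, for the eGFP+ plate and eGFP++ plates 1 to 3, filled where the cell had an Egfp read. To the right of the dotted line lie 22 of 83 eGFP+ cells with at least 5 G2/M genes, against 7, 8 and 3 of 94 cells on the eGFP++ plates.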

How the data were processed

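Whole-number read counts per gene and well, as the authors deposited them, were used without change. Per the labels' protocols, libraries were made by CEL-seq in a modified form, with a barcode per well. TopHat2 2.1.1, HTSeq 0.6.1 and mm10 are named in the submitters' processing notes, with no roles given. Each of 35 tables held 24092 entries: 23995 genes, 92 spike-in sequences, which stayed out of CPM, and 5 summary lines, which stayed out of everything; 40 columns of values matched no sample and were not used. Pairs of kept cells with identical counts numbered 0, and plates share the set of well barcodes by design. No doublet caller was run on the sorted wells.

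Reads of the kept cells were summed per plate and divided by the plate's gene reads. Genes and lists, 28 in all, were chosen with earlier results of these data known. The text names Egfp, the markers, the 12 genes furthest above and below the nearest eGFP++ plate among those that met both calls, had at least 50 CPM on the higher side and at most 25% of that side's reads in 1 cell, and members of the lists; other genes in the text were chosen after their values were seen. Coordinates are those of GENCODE vM21 on GRCm38. The calling rule was also run on simulated plate sums. These held no single cells and no difference in genes per cell, so that run does not bear on genes whose reads sit in 1 cell. TMM factors came from edgeR 4.0.16 in R 4.3.3; all else ran in Python 3.11.15 (scipy 1.17.1, pandas 2.3.3, numpy 2.4.6; figures with matplotlib 3.10.9).

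Alternatives covered scaling, weighting of cells, filters on cells and genes, depth, fold, each eGFP++ plate left out, the pilot eGFP++ plate added, and cells with few mitotic genes. Another 5 were chosen after seeing the data: eGFP++ plate 1 alone, cells with an Egfp read, spike-in scaling, another random thinning, and leaving out the cell with the most reads of each gene on each plate. Some results on single genes are not reported here.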

Additional observations from a re-analysis of the deposited data

Results flagged for a closer look

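Neurog1 stood at 115.4 CPM on unselected Day 6 plate 2, which set that plate apart from the other plates of its group. The level on the eGFP+ plate was 86.8 CPM, and its place inside the unselected Day 6 range rests on that 1 plate. In all, 28 groups of 4 plates were examined for a plate that stands apart and 1 was found, while chance alone gives about 1 in 20.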

How the results depend on the processing

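The medians of the 8 lists named here kept their sign under the alternatives that computed them anew, though the neurogenic median fell to 0.0094 with spike-in scaling. List medians used the members tested in the main setting, so the filters on genes could not move them. The 3-fold limit, the alternatives on shares of cells and the mitotic limits gave no list medians. The cause of each change was not tested, beyond the fewer genes or cells that some alternatives keep. Shares are of the genes tested. TMM scaling called 8.68% higher and gave medians of 1.06 for neurogenic, -1.19 for cytoskeleton and -1.30 for synaptic genes. The mean of per-cell CPM gave -2.13 for motor neuron, -1.34 for cytoskeleton and -1.20 for synaptic genes. Cells with at least 1000 genes gave -1.61 for cytoskeleton genes, and cells thinned to 10000 reads -2.04 for motor neuron genes. No filter on genes called 8.75% (1267) higher and 16.8% (2432) lower, a mean of at least 50 CPM 2.87% (78) and 14.5%, and a 3-fold limit 2.03% and 10.7% (784). Leaving out each eGFP++ plate in turn called 6.38% to 7.77% higher and 20.6% to 25.4% lower, with medians of 0.70 to 1.09 for neurogenic and -1.64 to -1.39 for cytoskeleton genes. The pilot eGFP++ plate as a further plate gave 0.98 for neurogenic genes. Cells with fewer than 5 mitotic genes gave 1.06 for neurogenic, 1.22 for progenitor, 0.57 for G2/M, -2.12 for motor neuron, -1.39 for cytoskeleton and -1.25 for synaptic genes, and turned Ccnb1 to -1.92, Ccna2 to -2.45 and Cdc20 to -1.10. Thinning to 5000 reads called 6.85% (502) lower by share, against 10.4% (761) at 10000 reads. At least 3 mitotic genes were found in 45.8% of eGFP+ cells, against 17.02%, 28.7% and 17.02% on eGFP++ plates 1, 2 and 3.

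Of the alternatives chosen after seeing the data, spike-in scaling called 0.955% (74) higher and 28.9% (2237) lower, with 0.0094 for neurogenic, 0.69 for Notch, 1.16 for progenitor, 0.54 for S phase, 1.08 for G2/M, -3.60 for motor neuron, -2.33 for cytoskeleton and -2.62 for synaptic genes. The median of all tested genes with spike-in scaling was -1.44. Plate 1 of eGFP++ alone called 14.3% (902) higher, with 2.78 for Notch, 1.03 for S phase, -2.14 for motor neuron and -1.29 for synaptic genes. Cells with an Egfp read, 43 on the eGFP+ plate and 94 on each eGFP++ plate, gave -2.13 for cytoskeleton and -5.56 for synaptic genes. All tested genes had -0.58 in that setting. Plate sums under 3 reads were set to 3 reads there too, so medians this low can rest on bounds. Leaving out the cell with the most reads of each gene called 3.43% higher, with -1.72 for cytoskeleton and -2.47 for synaptic genes, and turned Maml1 to -0.082. No paired analysis was possible because the eGFP+ gate has 1 plate and no test was run. That single plate and its fewer genes per cell limit all values.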
